A study of Mus musculus with 6 samples.

Results

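The proteasome subunit genes were taken as the 36 of 17831 genes in the count table whose symbols start with Psma, Psmb, Psmc or Psmd followed by a digit, without the immunoproteasome genes Psmb8, Psmb9 and Psmb10 and without pseudogene symbols. They comprised 15 genes of the 20S core particle, of which 8 encode α ring and 7 encode β ring subunits, and 17 genes of the 19S regulatory particle, of which 9 belong to its base and 8 to its lid. Psmd5, Psmd9 and Psmd10 carry subunit symbols but encode 3 chaperones that assemble the base, and Psmc3ip, which fits the naming pattern, encodes a cofactor of meiotic recombination and is given apart. Of the 36 genes, 35 passed the filter on low counts. Psma8, the testis form of an α subunit, did not, with 12 reads in 1 library and 0 in the other 5.

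The proteasome degrades proteins that carry ubiquitin chains. Its core particle is a barrel in which outer α rings gate the entry and inner β rings hold the proteolytic sites, on Psmb5, Psmb6 and Psmb7. The regulatory particle caps the barrel: its base recognises the substrate and unfolds it with a ring of ATPases, and its lid removes the ubiquitin chain. In lymphocytes the proteasome is known for degrading the inhibitor of NF-κB and for making the peptides shown by MHC class I.

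The libraries were made from group 2 innate lymphoid cells (ILC2s), tissue lymphocytes that secrete type 2 cytokines, sorted from mouse lung as CD45+, lineage-, CD127+ and ST2+ cells. All mice were 6 to 8 weeks old and were given rmIL-33 (0.5 μg, intranasally) on 3 days. The cells were sorted on day 4 and then kept in rmIL-2 and rmIL-7 for 18 h, or 24 h by the study's legend. The 3 WT libraries came from mice labelled CB57BL/6 and the 3 SIRPα KO libraries from mice labelled SIRPalphatm1Ynliu/J, a strain in which the mutation of the inhibitory receptor SIRPα is carried by the whole mouse and not by ILC2s alone. Each library was amplified from 10 pg of RNA, and the labels do not say how many mice it came from.

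Library totals were 13980491 to 19051504 reads on genes. The biological coefficient of variation, the typical spread of a gene between libraries of a group, was 38.1% in WT and 15.2% in SIRPα KO. It was 27.9% in WT without replicate 3, which stood apart from the other libraries. Some libraries share a code number in the labels, namely 37 and 37V1 (WT replicates 1 and 2) and 44 and 44V1 (SIRPα KO replicates 2 and 3). If a code marks 1 sample, each group has 2 samples and the p values below are too small. Sirpa, the deleted gene, had 149, 96 and 73 reads in WT and 48, 85 and 28 in SIRPα KO, so reads on it remained in every knockout library (log2 fold change of SIRPα KO over WT -1.12, adjusted p = 0.115, edgeR). All 10 ILC2 markers had reads in every library, and they summed to between 17300 and 17800 CPM (counts per 1000000 reads) in SIRPα KO and to between 12800 and 13900 CPM in WT. Markers of other lymphocytes were fewer in SIRPα KO, where 5 B cell genes summed to between 16.9 and 35.7 CPM and to between 112 and 209 CPM in WT. For 5 T cell genes the sums were 4.57 to 5.5 CPM against 18.4 to 22.6 CPM, and for 3 NK genes 0.383 to 0.682 CPM against 7.42 to 9.67 CPM. The sums overlapped for macrophage and dendritic cell genes (74.6 to 117 CPM in SIRPα KO against 41.0 to 135 CPM), epithelial genes (8.37 to 73.2 against 51.5 to 74.4 CPM) and mast cell and eosinophil genes (1.55 to 18.7 against 7.59 to 21.9 CPM). Ms4a1, Cd4, Cd5, Eomes and Klrb1c were at 0 in at least 1 library, and the part of these cells in the values below was not tested. Fewer cells of a type and less RNA per cell cannot be told apart in such libraries.

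Before any correction for transcript length, the summed transcripts of the core particle were lower in every SIRPα KO library than in every WT library, whereas the sums of the regulatory particle overlapped. The difference between the particles was not tested. Summed over the core subunits, the WT replicates 1, 2 and 3 had 5764.5, 5653.5 and 7431.3 CPM, and the SIRPα KO replicates had 5058.9, 4913.8 and 5205.2 CPM. All 3 knockout libraries lay below all 3 WT libraries, and WT replicate 3 was far above the other two. The regulatory sums overlapped, at 5488.8, 5527.8 and 6140.2 CPM in WT and 5915.9, 5770.1 and 5717.2 CPM in SIRPα KO. The core sum divided by the regulatory sum was therefore 1.05, 1.023 and 1.21 in WT and 0.855, 0.852 and 0.91 in SIRPα KO, again with no overlap. With 3 libraries against 3, an exact permutation test cannot give a two-sided p under 0.1, so no p is given for these sums.

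**Figure D1:**
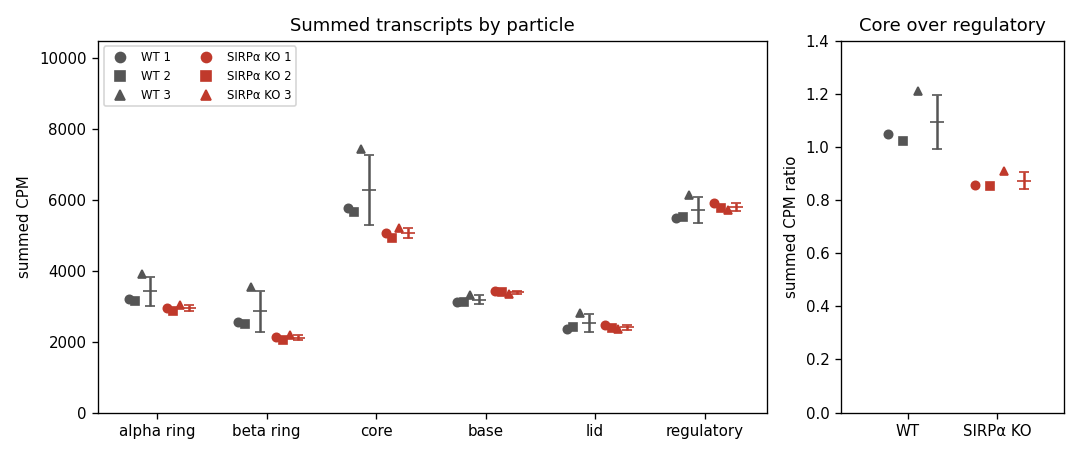
Summed CPM of the subunits of each ring or particle in each library (left) and the core sum divided by the regulatory sum (right), with the mean and SD of the 3 libraries of a group beside the points. The SIRPα KO points lie below all WT points for the α ring, the β ring, the core and the ratio, above them for the base, and overlap them for the lid and the regulatory particle.

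All 14 tested core subunits had a negative log2 fold change, with a median of -0.30 against -0.025 over all 13623 genes tested. Among all genes 51.6% were negative. Only 2 of the 14 passed the threshold of an adjusted p under 0.05 in edgeR's quasi-likelihood test, both as lower, where 5.81% of all genes did so. The 3 libraries of SIRPα KO lay below those of WT for 8 of the 14, and the same held for 21.2% of all genes. Of the 17 regulatory subunits, 11 had a negative and 6 a positive log2 fold change, with a median of -0.06. One of them, Psmd1, passed the threshold as higher, where 5.94% of all genes did so. The knockout libraries lay below WT for 3 regulatory subunits and above WT for 4, against 21.2% and 21.6% of all genes.

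**Figure D2:**
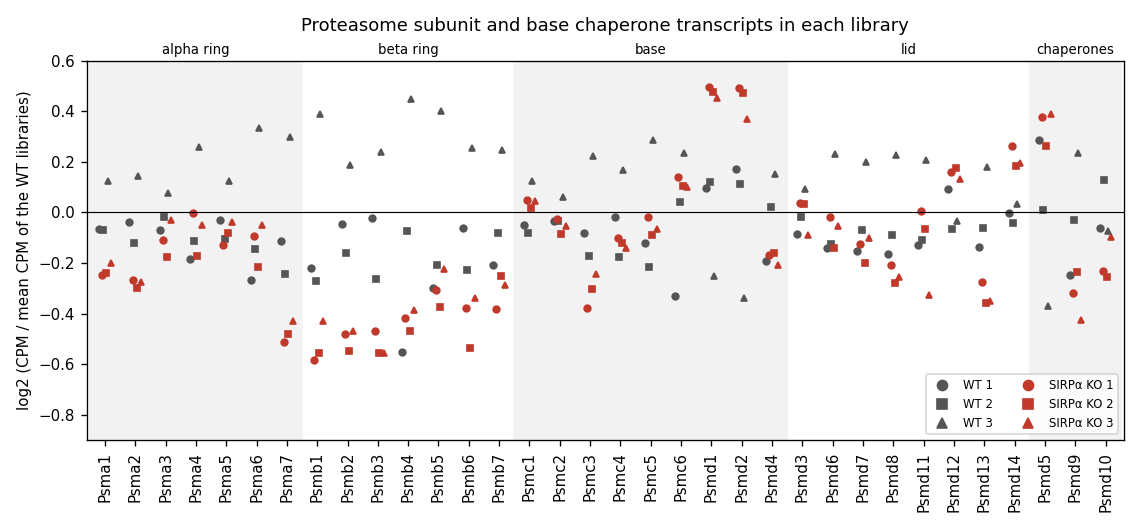
Level of each tested subunit and base chaperone in each library, as the log2 of its CPM divided by the mean CPM of the 3 WT libraries. The SIRPα KO points sit below 0 for every β ring subunit and at the top for Psmd1, Psmd2, Psmd12 and Psmd14, and WT replicate 3 is the highest WT library for every core subunit tested.

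Within the core, the β ring differed from WT more than the α ring did in size, with medians of -0.42 and -0.12 over 7 subunits each. The difference between the rings was not tested. The knockout libraries lay below WT for 5 of 7 subunits in the β ring and 3 of 7 in the α ring, against 21.2% of all genes. The summed β ring transcripts were 2559.9, 2500.3 and 3533.1 CPM in WT and 2120.7, 2046.8 and 2180.7 CPM in SIRPα KO.

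Without correction for length, Psmb2 and Psmb3, structural β ring subunits with no proteolytic site, were the core genes past the threshold in edgeR, both lower. Psmb2, on mm10 chromosome 4 from 126677630 to 126709714, had 521.9, 482.2 and 613.4 CPM in WT and 385.9, 368.8 and 390.1 CPM in SIRPα KO. Its highest knockout library was below its lowest WT library, and it fell by 0.50 on the log2 scale (standard error 0.11, adjusted p = 0.0335, edgeR). Psmb3, on chromosome 11 from 97703399 to 97713500, had 518.3, 438.2 and 620.3 CPM in WT and 380.2, 358.4 and 357.5 CPM in SIRPα KO, also without overlap. It fell by 0.53 on the log2 scale (standard error 0.14, adjusted p = 0.0462). Both calls were lost without WT replicate 1 and without any of the knockout libraries, which left 0 core subunits past the threshold in edgeR (4 at an unadjusted p under 0.05 without SIRPα KO replicate 1). They were also lost with the libraries of a code summed (adjusted p = 0.152 for Psmb2 and 0.160 for Psmb3), and that of Psmb3 without the filter on low counts (adjusted p = 0.0608). In these settings the log2 fold changes of both genes were between -0.57 and -0.47. Leaving out a knockout library left 16 or 17 genes past the threshold in the whole table, or 0.112% without the first and 0.12% without either of the others, against 11.7% with all libraries. With the libraries of a code summed, 0.0686% of all genes were past the threshold. Without WT replicate 3, where 8.07% of all genes were called lower, 5 core subunits were past it, all lower, and the median of the core was -0.15, with 2 of 14 positive.

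The catalytic subunits Psmb5, Psmb6 and Psmb7 were not past the threshold. Psmb5, which carries the chymotrypsin-like site, lies on chromosome 14 from 54614119 to 54618022 and had 364.8, 388.6 and 593.4 CPM in WT and 363.4, 346.2 and 384.5 CPM in SIRPα KO. Its groups overlapped, since only WT replicate 3 was much above the knockout libraries (log2 fold change -0.30, standard error 0.185, adjusted p = 0.296). Psmb6, with the caspase-like site, lies on chromosome 11 from 70525367 to 70527858 and had 400.6, 356.7 and 498.2 CPM in WT and 321.4, 288.3 and 331.1 CPM in SIRPα KO. Its groups did not overlap (log2 fold change -0.42, standard error 0.14, adjusted p = 0.0903). Psmb7, with the trypsin-like site, lies on chromosome 2 from 38588036 to 38644087 and had 208.7, 227.7 and 285.8 CPM in WT and 184.9, 202.4 and 197.4 CPM in SIRPα KO. The lowest WT and highest knockout libraries of Psmb7 were close but did not overlap (log2 fold change -0.31, standard error 0.14, adjusted p = 0.170). Psmb7 overlaps Nek6, with 16342 reads in all, on the other strand. Since counting by strand is not stated, some of the reads of Psmb7 could belong to Nek6. Psmb5 has a near-identical copy, Gm3375, with 98.9% identity over 88.0% of its length and 1724 reads in all against 39255 on Psmb5. The noncatalytic Psmb1 and Psmb4 had log2 fold changes of -0.52 and -0.42 without passing the threshold (adjusted p = 0.0967 and 0.234).

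In the α ring no subunit passed the threshold in edgeR, and the log2 fold changes ran from -0.47 to -0.07. In DESeq2 Psma7 passed it as lower (adjusted p = 0.0336), as did 11.5% of genes with an adjusted p there. Psma7, on chromosome 2 from 180036374 to 180042433, had the lowest value, with 561.8, 513.7 and 747.9 CPM in WT and 426.5, 436.2 and 451.8 CPM in SIRPα KO (log2 fold change -0.47, standard error 0.15, adjusted p = 0.0721). Its groups did not overlap. Psma4, on chromosome 9 from 54950790 to 54958030, was at the other end, with 267.8, 281.3 and 363.7 CPM in WT and 303.4, 269.9 and 294.0 CPM in SIRPα KO (log2 fold change -0.07, standard error 0.14, adjusted p = 0.744). All knockout libraries of Psma4 lay between the lowest and highest WT libraries. Psma4 has a near-identical copy, Gm6542, with 444 reads in all against 28737 on Psma4. Psma2, on chromosome 13 from 14613240 to 14674236, had 760.6, 718.5 and 863.0 CPM in WT and 649.1, 635.5 and 646.0 CPM in SIRPα KO, with no overlap (log2 fold change -0.28, standard error 0.10, adjusted p = 0.101). The other α subunits, Psma1, Psma3, Psma5 and Psma6, had log2 fold changes between -0.23 and -0.08, and of these Psma1 alone had non-overlapping groups.

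The base of the regulatory particle held both subunits with the largest positive values. Psmd1, the scaffold of the base that also binds ubiquitin receptors, lies on chromosome 1 from 86064387 to 86139151 and had 410.6, 417.7 and 322.5 CPM in WT and 541.9, 533.4 and 525.5 CPM in SIRPα KO. Every knockout library was above every WT library, and Psmd1 rose by 0.48 on the log2 scale (standard error 0.12, adjusted p = 0.0437, edgeR). Psmd2, the other large scaffold, had 578.3, 555.0 and 406.1 CPM in WT and 720.9, 712.5 and 663.4 CPM in SIRPα KO, without overlap. Its log2 fold change was 0.45, with an adjusted p of 0.0782 in edgeR and 0.0277 in DESeq2. Psmd2 has a near-identical copy, Gm5422, with 559 reads in all against 59550 on Psmd2. WT replicate 3 was the lowest library for Psmd1 and Psmd2, whereas it was the highest WT library for every core subunit. Psmd1 was not past the threshold without WT replicate 1 (adjusted p = 0.0558), without any knockout library, with upper quartile scaling (0.0542), without the filter on low counts (0.0549) or with the libraries of a code summed (0.158). Without a knockout library 0.112% to 0.12% of all genes were called, and with the libraries of a code summed 0.0686%. The log2 fold change of Psmd1 was 0.38 with upper quartile scaling and 0.47 to 0.55 in the other settings named. Without WT replicate 3, where 10.4% of all genes were called higher, it was joined by Psmd2 and Psmd14.

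The ATPases Psmc1 to Psmc6, which unfold the substrate, had log2 fold changes from -0.31 to 0.12, and none of the 6 passed the threshold. Psmc3, on chromosome 2 from 91054009 to 91066369, had 370.4, 347.5 and 457.8 CPM in WT and 301.7, 317.7 and 331.3 CPM in SIRPα KO, the single ATPase without overlap (log2 fold change -0.31, standard error 0.13, adjusted p = 0.141). Psmc3 overlaps Slc39a13, with 2866 reads in all, on the other strand, so some of its reads could belong to that gene. Psmc1, Psmc2, Psmc4, Psmc5 and Psmc6 had log2 fold changes between -0.12 and 0.12. Psmd4, a ubiquitin receptor of the base, was at -0.18. Summed over its 9 genes, the base was higher in SIRPα KO in every library, at 3118.2, 3115.3 and 3322.4 CPM in WT and 3443.6, 3394.8 and 3358.9 CPM in SIRPα KO. Psmd1 and Psmd2 were the base subunits whose knockout libraries all lay above WT. Without them, the other 7 together had 2129.3, 2142.6 and 2593.8 CPM in WT and 2180.8, 2148.9 and 2170.0 CPM in SIRPα KO, with overlap. The median log2 fold change of the 9 base subunits was -0.05, and 5 of them were negative.

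In the lid none of 8 subunits passed the threshold, with log2 fold changes from -0.33 to 0.22. Psmd14, the deubiquitinase that cuts off the chain, lies on chromosome 2 from 61711694 to 61800376 and had 236.7, 230.3 and 242.7 CPM in WT and 284.5, 269.4 and 271.6 CPM in SIRPα KO. The groups of Psmd14 did not overlap and each was narrow (log2 fold change 0.22, standard error 0.09, adjusted p = 0.156). Psmd13, on chromosome 7 from 140881968 to 140898643, had 237.6, 249.8 and 295.4 CPM in WT and 215.8, 203.9 and 204.7 CPM in SIRPα KO, all lower than WT (log2 fold change -0.33, standard error 0.12, adjusted p = 0.102). It overlaps Sirt3 on the other strand and the pseudogene Gm15542 on its own, so that some of its reads could belong to those genes. Psmd12, a lid scaffold, also had every knockout library above WT (log2 fold change 0.16, adjusted p = 0.299), and Psmd8 every one below (-0.25, adjusted p = 0.204). Psmd3, Psmd6, Psmd7 and Psmd11 had negative values no lower than -0.14, with overlapping groups.

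The base chaperones did not move together. Psmd5 had a log2 fold change of 0.35 (adjusted p = 0.196), and Psmd9 and Psmd10 had -0.32 (adjusted p = 0.197) and -0.19 (adjusted p = 0.360). Psmc3ip was low and its groups overlapped, at 20.9 ± 7.52 CPM (SD, n = 3) for WT against 18.3 ± 4.39 CPM for SIRPα KO.

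Levels of different subunits were compared per kb of the longest annotated transcript. In WT, Psmb2 stood highest at 628 CPM per kb and Psmd11, a lid scaffold, lowest at 67.2 CPM per kb, a range of 9.35-fold over the 31 tested subunits. The 6 highest were core subunits, namely Psmb2, Psmb5 (499), Psmb6 (433), Psma1 (404), Psma7 (401) and Psmb3 (348 CPM per kb), and the highest regulatory subunit was Psmd7 at 279 CPM per kb. The SD of Psmb5 in WT was 140 and that of Psmb6 75.0 CPM per kb, so these neighbours in the order did not differ beyond the spread between libraries. The order also depends on which transcript is used as the length. With the principal transcript of each gene, Psmb3 (686 CPM per kb) and Psma7 (665) came first, since their longest annotated transcripts are longer than their principal ones.

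Core transcripts are short, and short transcripts as a whole were lower in SIRPα KO. The longest annotated transcript had a median of 1220 bases over the 14 core subunits, 1983 bases over the 17 regulatory subunits and 3057 bases over all tested genes. All genes averaging 3 or more on the log2 CPM scale were split into 10 bins of about equal size by length. Their median log2 fold change went from -0.55 in the shortest bin (up to 1336 bases) to 0.47 in the longest, and was higher in each bin than in the one before. Of the 14 core subunits, 8 lay above the median of their own bin, as did 10 of the 17 regulatory subunits. Psmb2, at 859 bases, had -0.50 where its bin had -0.55, and Psmd1, at 3112 bases, had 0.48 where its bin had 0.09. Across the 31 subunits, which share libraries and differ in depth, the log2 fold change and the log2 length had a Pearson r of 0.424 and a Spearman rho of 0.372. With the length of the coding sequence these were 0.782 and 0.678. Over 13484 genes, with the longest transcript, they were 0.372 and 0.463, and over 11412 genes, with the coding sequence, 0.329 and 0.421.

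**Figure D3:**
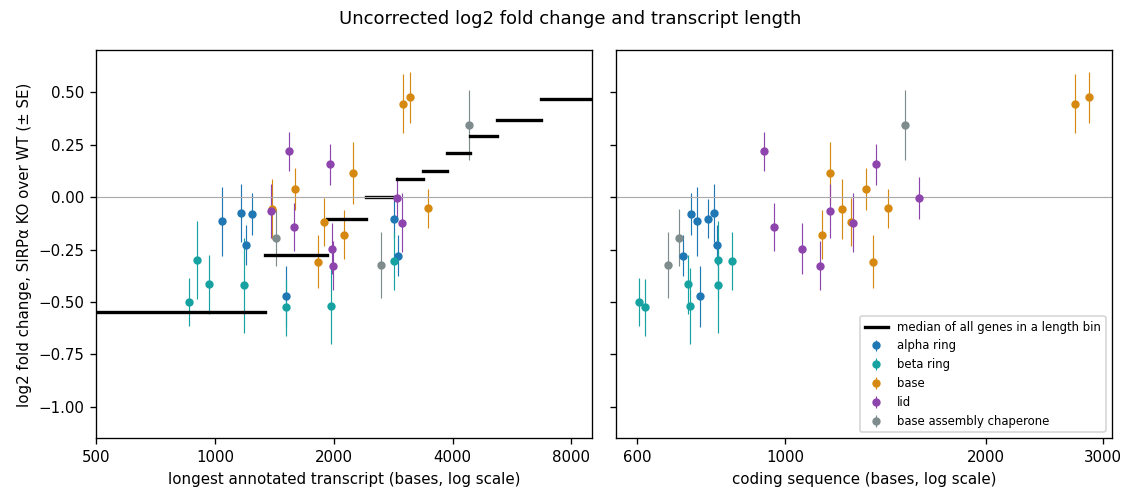
Uncorrected log2 fold change (SIRPα KO over WT, ± SE) of each subunit and base chaperone against the length of its longest annotated transcript (left) and of its coding sequence (right), with the median of all genes in each of 10 length bins as black bars (cut at the edges of the plot). On the left, 4 of the 7 β ring subunits (Psmb2, Psmb4, Psmb5 and Psmb6) lie in the shortest bin, where the black bar is at -0.55. On the right, the longest coding sequences are those of Psmd1 and Psmd2, at 0.48 and 0.45.

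When each library was corrected for its trend in transcript length and GC content, the core subunits were no longer lower as a group. This correction takes out any difference between the groups that follows length or GC content, whatever its source. That source was not tested. Of the 14 core subunits, 8 had a negative and 6 a positive log2 fold change, with a median of -0.01 against -0.02 over all genes. Psmb2 was at -0.01 (adjusted p = 0.975), Psmb3 at -0.27 (adjusted p = 0.0919) and Psma7 at -0.02 (adjusted p = 0.924). Past the threshold, where 4.73% of all genes were lower and 4.13% higher, stood Psma2 as lower (-0.55, standard error 0.12, adjusted p = 0.0351) and Psmb5 as higher (0.36, standard error 0.08, adjusted p = 0.0357). The call of Psma2 was lost without WT replicate 1 (adjusted p = 0.0509), without any knockout library (0.131 to 0.155) and with the libraries of a code summed (0.134). That of Psmb5 was lost without any one library other than WT replicate 3, and with the libraries of a code summed. With the correction kept, 0.516% to 0.856% of all genes were called without a knockout library, and 0.096% with codes summed. Psma2 has a long annotated transcript of 2911 bases, 702 of them coding, and shares its strand with the overlapping gene AW209491. Psmb6 was at 0.06 (adjusted p = 0.722) and Psmb7 at -0.55 (adjusted p = 0.0733), for which the longest transcript has 2849 and the principal one 1160 bases. Of the 17 regulatory subunits 6 were negative and 11 positive, with a median of 0.08. Psmd1 rose in this fit too, by 0.30 on the log2 scale (standard error 0.08, adjusted p = 0.0494), though not without any one library other than WT replicate 3. Beside it stood Psmd2 (0.40, adjusted p = 0.0644), Psmd14 (0.30, adjusted p = 0.0573), Psmc3 (0.00, adjusted p = 0.991) and Psmd13 (-0.11, adjusted p = 0.461).

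The outcome depended on what was taken as the length, an alternative chosen after the data were seen. A principal transcript and a coding sequence were known for 11412 of the 13623 genes. The other genes entered uncorrected and are part of the medians and shares over all genes below. With principal transcripts the core had 8 negative and 6 positive values and a median of -0.02, against -0.06 over all genes. Psma2 (-0.68, adjusted p = 0.0305) and Psmb5 (0.34, adjusted p = 0.0445) were past the threshold (4.58% of all genes were lower and 3.98% higher). Psmb3 was at 0.06 and Psmb7 at -0.03. With coding sequences the core had 12 negative and 2 positive values and a median of -0.25, against -0.072 over all genes. Psma2 was past the threshold (-0.47, adjusted p = 0.0327, where 3.91% of all genes were lower) and Psmb5 was at 0.09 (adjusted p = 0.685). The regulatory median was 0.08 with principal transcripts and -0.14 with coding sequences, and Psmd1 was at 0.21 (adjusted p = 0.0895) and -0.06 (adjusted p = 0.722).

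**Figure D4:**
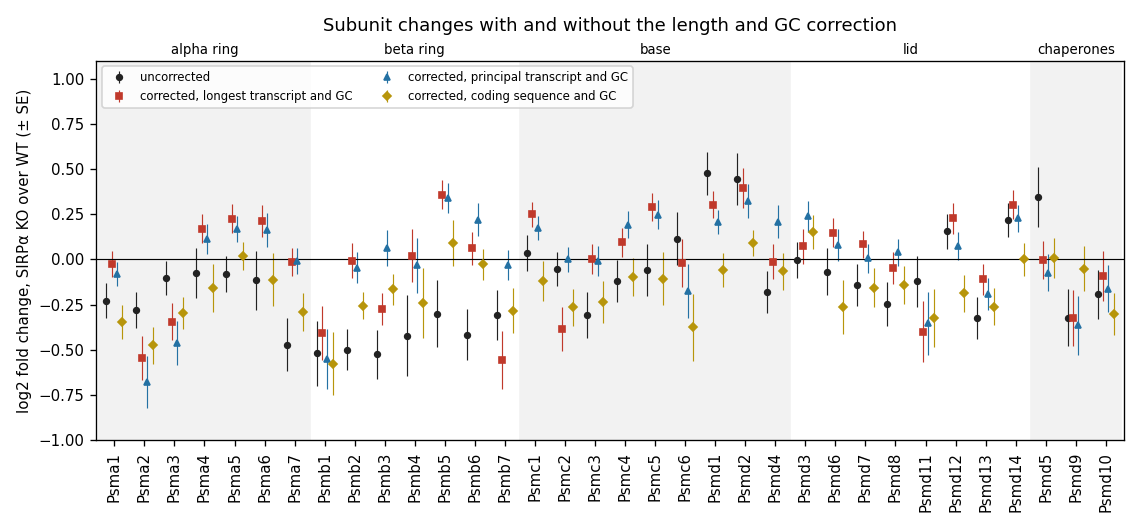
Log2 fold change (SIRPα KO over WT, ± SE) of each subunit and base chaperone without correction and with each correction for length and GC content. For the β ring subunit Psmb2 the black point is at -0.50 and the corrected points at -0.01, -0.05 and -0.25, and for Psma2 every corrected point lies below the uncorrected one at -0.28.

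Among 44 related genes of the pathway, 4 were lower and 3 higher past the threshold, where 5.81% and 5.94% of all genes were. All 7 calls were lost without any one knockout library and with the libraries of a code summed. In these settings 0.112% to 0.12% and 0.0686% of all genes were called, against 11.7% with all libraries. Of 24 alternatives, Psmb8 lost its call in 16, Psme3 in 15, Ecpas and Vcp in 14, Pomp in 12, Ubb in 9 and Sem1 in 8. The immunoproteasome subunits, which replace the catalytic β subunits after interferon, were lower in every knockout library. Psmb8 had 587.0, 552.1 and 788.2 CPM in WT and 434.7, 416.0 and 424.2 CPM in SIRPα KO and fell by 0.60 on the log2 scale (standard error 0.14, adjusted p = 0.0380). Psmb9 had 74.5, 66.3 and 102.5 CPM against 53.9, 56.7 and 54.9 CPM (log2 fold change -0.56, adjusted p = 0.0802), and Psmb10 82.3, 78.9 and 116.7 CPM against 64.0, 67.6 and 73.6 CPM (-0.44, adjusted p = 0.134). After the length and GC correction Psmb8 was at -0.38 (adjusted p = 0.0542), Psmb9 at -0.51 and Psmb10 at 0.06. With principal transcripts or coding sequences Psmb8 was at -0.27, the lowest of these immunoproteasome subunits.

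The activator subunits Psme1 and Psme2, which form a cap used with the immunoproteasome, were also lower without passing the threshold in edgeR. Psme1 had 237.2, 236.7 and 341.6 CPM in WT and 185.3, 195.0 and 206.0 CPM in SIRPα KO (-0.48, adjusted p = 0.0902), and Psme2 had 283.6, 277.2 and 362.6 CPM and 218.6, 230.5 and 215.0 CPM (-0.47, adjusted p = 0.0524). Both had non-overlapping groups, and after the correction they were at -0.18 and 0.03. Psme3, the nuclear activator, went the other way, from 346.9, 312.7 and 282.4 CPM to 445.5, 406.4 and 417.3 CPM. It rose by 0.43 on the log2 scale (standard error 0.11, adjusted p = 0.0454), and by 0.40 after the correction (adjusted p = 0.0335).

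Sem1, a small lid subunit whose symbol lies outside the naming rule, fell the most of the subunits. It had 162.0, 178.1 and 272.7 CPM in WT and 100.7, 106.9 and 108.4 CPM in SIRPα KO, and fell by 0.96 on the log2 scale (standard error 0.20, adjusted p = 0.0266). After the correction it fell by 1.06 (adjusted p = 0.0218), and with coding sequences by 0.71 (adjusted p = 0.0164). Adrm1, a ubiquitin receptor of the base, was at -0.31 (adjusted p = 0.0926). Pomp, the chaperone that brings β subunits onto the core, had 297.5, 302.3 and 411.6 CPM in WT and 228.3, 224.9 and 227.9 CPM in SIRPα KO, with no overlap. It fell by 0.57 on the log2 scale (standard error 0.14, adjusted p = 0.0425) and by 0.81 after the correction (adjusted p = 0.0465). With principal transcripts it fell by 0.44 (adjusted p = 0.0390), and with coding sequences it was at -0.25 (adjusted p = 0.112). The other core chaperones, Psmg1 to Psmg4, had log2 fold changes from -0.76 to -0.05, and none passed the threshold.

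Ecpas, which holds the core and regulatory particles together, rose by 0.95 on the log2 scale, from 95.3, 130.7 and 83.5 CPM to 189.8, 203.6 and 203.9 CPM (standard error 0.17, adjusted p = 0.0194). After the correction it was at 0.43 (adjusted p = 0.0539), or 0.17 with coding sequences (adjusted p = 0.419), and its longest transcript has 7045 bases. Vcp, the ATPase that extracts ubiquitinated proteins for the proteasome, had 1171.6, 1152.3 and 965.0 CPM in WT and 1467.0, 1480.1 and 1403.9 CPM in SIRPα KO and rose by 0.40 (standard error 0.10, adjusted p = 0.0413), and by 0.28 after the correction (adjusted p = 0.0346). With coding sequences Vcp was at 0.03 (adjusted p = 0.863). Ubb, a polyubiquitin gene, had 3970.3, 3241.1 and 4203.6 CPM in WT and 2199.3, 2243.6 and 2192.3 CPM in SIRPα KO. It fell by 0.78 on the log2 scale (standard error 0.11, adjusted p = 0.0115) and by 0.42 after the correction (adjusted p = 0.0196).

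**Figure D5:**
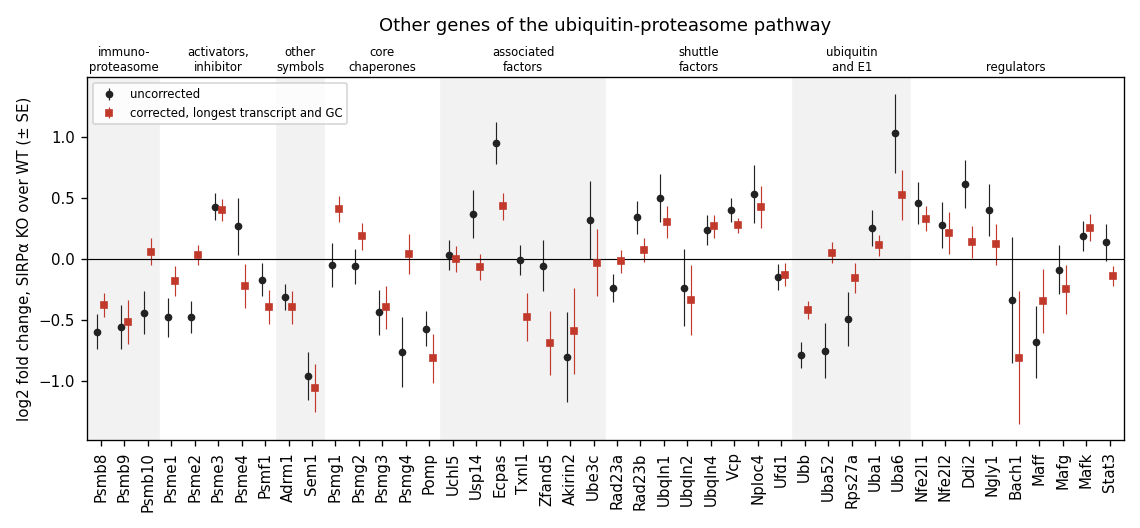
Log2 fold change (SIRPα KO over WT, ± SE) of 44 related genes of the ubiquitin-proteasome pathway, without correction and corrected for the longest transcript and GC content, grouped by role. Sem1, Pomp, Psmb8 and Ubb are past the threshold below 0 and Ecpas, Psme3 and Vcp above 0 without correction. With this correction the points of Sem1 and Pomp are further from 0, at -1.06 and -0.81, and that of Ecpas is nearer; with coding sequences, not plotted, Sem1 and Pomp were nearer 0, at -0.71 and -0.25.

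Among the 9 regulators, none passed the threshold in edgeR, and 1 passed it as higher in DESeq2. Nfe2l1, the transcription factor known to drive subunit genes when the proteasome is inhibited, had 196.0, 196.8 and 129.2 CPM in WT and 240.3, 228.1 and 249.1 CPM in SIRPα KO, with every knockout library above WT (log2 fold change 0.46, standard error 0.17, adjusted p = 0.113, and 0.33 after the correction, adjusted p = 0.0854). Ddi2, the protease that processes it, was at 0.62 (adjusted p = 0.0779), and at 0.14 after the correction (adjusted p = 0.531).

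The promoters of the subunits were searched for the letters of motifs named for such factors, since the members are known to share promoter elements. RefSeq (GRCm38.p6) had a promoter, 250 bases before to 50 after the start, for 29 of the 36 members, and 7 motifs were searched on both strands. The antioxidant response element core TGACNNNGC, bound by Nfe2l1 and its relatives, was found in 5 of 29 (17.2%), against 14% of the promoters of 27025 genes. The ETS core CCGGAA was in 16 of 29 (55.2%, against 16.7%), the GC box GGGCGG in 18 (62.1%, against 38.2%) and the YY1 letters GCCATNTT in 6 (20.7%, against 6.96%). CCAAT was in 12 (41.4%, against 41.1%), TATAAA in 3 (10.3%, against 15.7%) and TGACGTCA in 0 (against 2.03%). Examples of 3 of the motifs in subunits given with full values above, picked after their values were seen, are shown here, 5′ to 3′ on the strand of the gene, with the matched letters in capitals.
Psmb5, TGACNNNGC, chr14:54618025-54618051, minus strand: gtgaagttgTGACGTCGCggcgttgcc
Psmb6, TGACNNNGC, chr11:70525339-70525365, plus strand: taaagagagTGACGGAGCgctttacga
Psma2, CCGGAA on the other strand, chr13:14613254-14613277, plus strand: gttccgactTTCCGGgtaaagatg
Psmd13, CCGGAA, chr7:140882379-140882402, plus strand: cccgcggtgCCGGAAgtgagcgag
Psma4, GCCATNTT, chr9:54950803-54950828, plus strand: cgcgcgggaGCCATATTcgccgcgga
Psmb6, GCCATNTT on the other strand, chr11:70525385-70525406, plus strand: tagcagaggAAGATGGCggccg
The match in Psmb5 begins 47 and that in Psmb6 9 bases before the start. The letters TGACNNNGC were also found in Psmc6, Psmd9 and Psmd12, and GCCATNTT in Psma2 and at 3 places in Psmb5. A match describes letters in this window and not binding.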

How the data were processed

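RNA of sorted and cultured ILC2s from 3 WT and 3 SIRPα KO samples was sequenced after amplification with a kit for very small inputs. The authors deposited estimated counts per gene, not scaled for library size. The study's methods name STAR and GENCODE M21 on mm10, and the submitters' processing notes give Partek 10.0, STAR 2.7.8 and DESeq2; whether counting used strand is not given in the sources used here.

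The estimated counts were rounded, filtered with filterByExpr at its defaults (count minimum 10, total minimum 15), scaled by TMM (factors 0.9885 to 1.007) and tested with edgeR 4.0.16 (quasi-likelihood test, genotype alone, R 4.3.3), with Benjamini-Hochberg adjustment over 13623 genes and a threshold of 0.05. A standard error was derived from the F statistic of the test. CPM is TMM-scaled. DESeq2 1.42.0 was an alternative. The correction fitted splines with 5 degrees of freedom to transcript length and GC content in each library over 8899 genes averaging 3 or more on the log2 CPM scale, outside the gene lists, and entered them as offsets. Lengths came from GENCODE M21, with 17400 symbols matched directly, 188 by synonym and 243 not matched. BLAST+ 2.17.0 was used to find near-identical copies (at least 95% identity over 50% of the length). The procedures were tested on simulated data. Counting error falls with depth, so the well-counted subunits are limited by the spread between 3 libraries.

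The members and gene lists were chosen with earlier results of these data known. Full values were given for Psmb5, Psmb6 and Psmb7, for members past the threshold without or with the correction, and for the highest and lowest of each ring, base and lid. Of the related genes, those past the threshold and Psmb9, Psmb10, Psme1, Psme2 and Nfe2l1 were given likewise. Psmd2, Psmd12, Psmd5 and others named with fewer values were chosen after their values were seen. Psmb11 and Paaf1 were not analysed here, and 1 gene of the related list is not reported here. The labels give 3 replicates a group and the series text speaks of duplicates. No 2 libraries of a group agreed within counting noise (chi-square per degree of freedom at least 7.99), and if libraries of a code share a source, p values measure partly technical spread.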

Additional observations from a re-analysis of the deposited data

How the results depend on the processing

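Without the length and GC correction, the 14 tested core subunits were all negative under DESeq2, RLE and upper quartile scaling, the replicate block, summing libraries of a code and leaving out each library, except that 2 were positive without WT replicate 3. The cause of the changes below was not tested. Where libraries were summed or left out, fewer libraries entered the fit. Upper quartile scaling moved the median of all genes from -0.025 to -0.125.

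The numbers in the labels did not pair the samples: deviations of same-numbered libraries correlated at -0.042, 0.052 and 0.007. With a replicate block, 0 core and 0 regulatory subunits were past the threshold in edgeR, where 8.21% of all genes were, and 2 related genes were lower and 1 higher. With the block and the correction together, these were 0 core, 0 regulatory, 1 lower and 0 higher, where 2.8% of all genes were called. The medians of the core and regulatory subunits were then -0.007 and 0.083. With libraries of a code summed, 0 core, 0 regulatory and 0 related genes were past the threshold in either direction (0.0686% of all genes were). The same held with the correction (0.096% of all genes), where the medians were -0.01 and 0.086.

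Without the filter on low counts, 1 core subunit was lower and 0 regulatory subunits higher, where 2.96% of all genes were lower and 3.5% higher. DESeq2 called 3 core subunits lower, 2 regulatory subunits higher, and 8 related genes lower and 5 higher. Of the 12293 genes with an adjusted p in DESeq2, 11.5% were lower and 13.6% higher. Upper quartile scaling called 0 regulatory subunits and 1 related gene higher, where 5.16% of all genes were. With the correction, 1 core subunit was lower and 1 higher (4.73% and 4.13% of all genes), and the medians were -0.011 and 0.083. With the longest protein-coding transcript these were 1, 1, -0.002 and 0.106 (4.68% of all genes were lower and 4.08% higher). Then 0 regulatory subunits and 1 related gene were higher. With the principal transcript the core counts and the medians were 1, 1, -0.019 and 0.08 (4.58% of all genes were lower and 3.98% higher). Then 0 regulatory subunits and 0 related genes were higher. With the coding sequence 1 core subunit and 2 related genes were lower and 0 regulatory subunits were higher (3.91% and 3.17% of all genes).

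Leaving out each library in turn, without or with the correction, gave 0 to 5 core subunits lower and 0 to 1 higher, 0 to 1 regulatory subunits lower and 0 to 5 higher, and 0 to 7 related genes lower and 0 to 7 higher. The core median ran from -0.409 to 0.011 and the regulatory median from -0.129 to 0.119. The highest counts came without WT replicate 3. In these fits the share of all genes called ran from 0.112% without SIRPα KO replicate 1 to 18.4% without WT replicate 3. Both ends of this range came without the correction.

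Single genes that turned positive with the correction did so by the longest, longest coding and principal transcript, the replicate block and summed codes, in this order. Psma4 was at 0.171, 0.138, 0.114, 0.17 and 0.176, Psmb5 at 0.358, 0.36, 0.34, 0.358 and 0.343 (0.091 with the coding sequence), Psmb6 at 0.061, 0.244, 0.22, 0.061 and 0.083, and Psmb10 at 0.062, 0.041, 0.026, 0.062 and 0.02. Psme2 was at 0.035, 0.026, 0.036 and 0.058, without the principal transcript, where it stayed negative. Psmb3 was at 0.093 and 0.063 with the longest coding and principal transcript, and Psme1 at 0.031 and 0.011. Psmb2 was at 0.037 with codes summed, Psmc3 at 0.002 and at 0.003 with the block, and Psmd1 turned negative with the coding sequence, at -0.06. With a library left out, without or with the correction, Psma4 ran from -0.154 to 0.218, Psma7 from -0.583 to 0.039, Psmb2 from -0.575 to 0.07, Psmb5 from -0.425 to 0.397, Psmb6 from -0.521 to 0.136, Psmc3 from -0.388 to 0.053, Psmb10 from -0.544 to 0.115 and Psme2 from -0.548 to 0.068. Of the other values of single genes and of the range of levels per kb under an alternative, 375 kept their direction and their side of the threshold, 135 lost the threshold and 23 passed it.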
